A study of Saccharomyces cerevisiae with 24 samples.

Results

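The 36 genes described here encode nuclear subunits of the oxidative phosphorylation machinery of budding yeast, and they were chosen by name from the 7126 genes of the expression table. They comprise 3 NADH dehydrogenases, 4 subunits of succinate dehydrogenase, 9 of the cytochrome bc1 complex, 7 of cytochrome c oxidase and 13 of the ATP synthase, its inhibitor INH1 included. Messenger RNA was sequenced from Saccharomyces cerevisiae of the CEN.PK background in 4 genotypes. The rph1Δ strain lacks Rph1, a demethylase of lysine 36 of histone H3. The set2Δ strain lacks Set2, the methyltransferase for that residue. The H3K36A strain is labelled as carrying K36A, alanine for the lysine, in both HHT1 and HHT2, and the wild type (WT) carries none of these changes. Cultures of each genotype were sampled in log phase in the rich medium YPL (0 h), and 1 h and 3 h after a wash and transfer to the minimal medium SL. Each of the 12 combinations of genotype and time had 2 libraries, 24 in all. No source used here says whether the 2 came from separate cultures or strain isolates, so p-values measure only the spread between these libraries.

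The respiratory chain of this yeast passes electrons from NADH and succinate through ubiquinone, the bc1 complex and cytochrome c to oxygen, and the proton gradient it builds drives the ATP synthase. It has no proton-pumping complex I: single-polypeptide enzymes take that place, Ndi1 facing the mitochondrial matrix and Nde1 and Nde2 facing the cytosolic side. Most of these genes are known targets of the Hap2/3/4/5 activator, which binds CCAAT sequences, and they are induced when cells respire.

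Libraries held 6623458 to 7677684 counts assigned to genes (median 7055346.5), and 6503 genes passed a filter of 1 FPKM in at least 2 libraries. Summed over the 6 libraries of a genotype, RPH1 had 8 counts in rph1Δ and 3336 in WT, and SET2 had 0 in set2Δ and 1641 in WT. HHT1 and HHT2 had 5 and 2 counts in H3K36A libraries, against 16771 and 23721 in WT libraries; no source used here says how that strain encodes its altered H3. Mating-type genes also differed: 8 a-specific genes summed to 30.6 to 89.3 CPM (counts scaled to library size) in rph1Δ libraries against 224 to 533 in WT libraries, and 4 alpha-specific genes to 267 to 4160 CPM in rph1Δ against 25.3 to 82.1 in WT libraries. Loss of Rph1 and this difference in mating-type expression therefore cannot be told apart in any comparison of rph1Δ with WT.

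Levels are given as normalised FPKM: fragments per kilobase of exon, scaled to library size after adjustment by trimmed means (TMM). Differences are log2 fold changes from edgeR's quasi-likelihood test, given ± standard error. The test gives no standard error, so it was derived as the absolute log2 change over the square root of the F statistic. A gene is called where its Benjamini-Hochberg adjusted p over all 6503 genes is under 0.05. All 36 members passed the filter, but QCR8, a small bc1 subunit, had only 9 counts over the 24 libraries (0 in rph1Δ, 5 in set2Δ, 3 in H3K36A and 1 in WT), at most 3 in any library and 0 in 19. Its chromosomal neighbours ERG20 and HAL5 had 2643 to 4824 and 115 to 561 counts per library. QCR8 was called in no comparison, and the counts of members that follow concern the other 35.

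All of the 35 but NDE2 stood in a band of high levels in WT cells in YPL. The median of the 35 was 2238 normalised FPKM, against 42.92 for all genes tested, and 34 of the 35 lay in the top 10% of genes. Within each multi-subunit complex the highest and lowest subunits differed by little more than 2-fold in level. Succinate dehydrogenase spanned 2.25-fold, between SDH4, a membrane anchor, at 2932 and SDH1, the flavoprotein, at 1302. The bc1 complex spanned 2.22-fold (QCR6, a small subunit, at 3846, and QCR2, a core subunit, at 1732). Cytochrome oxidase spanned 2.12-fold (COX8 at 3507 and COX13 at 1653) and the ATP synthase 2.19-fold (ATP2, the catalytic beta subunit, at 3393, and INH1 at 1551). The NADH dehydrogenases were the exception, with NDE1 at 1179 and NDE2 at 12.84, a ratio of 91.8. After 3 h in SL the band was wider in WT cells: the ratio of highest to lowest was 5.8 in succinate dehydrogenase, 4.29 in the bc1 complex and 5.38 in the ATP synthase, but 1.85 in cytochrome oxidase. Reads of ATP1 and ATP14 may be shared with overlapping genes. ATP1 overlaps YBL100C, on the opposite strand, by 251 bases (0 to 2 counts per library). ATP14 overlaps YLR294C, on the same strand, by 32 bases (57 to 240 counts per library). No source used here says whether counting used the strand, which could part the reads of the ATP1 overlap but not those of the ATP14 overlap.

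Nearly all members were lower in WT cells 1 h after the transfer to SL than before it. No library came from cells kept on in YPL or washed and returned to it. The wash, the change of medium and the time passed therefore cannot be told apart in any comparison over time. In the comparison of 1 h with 0 h, 33 of the 35 members fell and 1 rose, with a median log2 change of -1.04; of all genes tested, 34.8% fell and 37.3% rose, with a median of 0.06. All 4 succinate dehydrogenase subunits fell (median -0.58), as did all 8 bc1 subunits (-1.46), all 7 cytochrome oxidase subunits (-0.69) and 12 of 13 ATP synthase subunits (-1.13). These are levels relative to the other messages of a culture, so fewer expressing cells and less RNA per cell cannot be told apart.

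Among the multi-subunit complexes the steepest falls were in bc1 and the ATP synthase. CYT1, which encodes cytochrome c1, had 472.6 and 480.8 normalised FPKM in WT cells at 1 h, against 1960 and 2027 at 0 h (log2 -2.06 ± 0.08, adjusted p = 2.44e-18). ATP20, subunit g of the membrane part, which acts in dimerisation, had 410.5 and 425.1 at 1 h, against 1697 and 1736 at 0 h (-2.04 ± 0.13, adjusted p = 1.89e-13). The libraries of the 2 times lay far apart for both genes. ATP1 and ATP2, the alpha and beta subunits of the catalytic head, fell by 1.74 ± 0.07 and 1.71 ± 0.07, and the bc1 core subunit COR1 fell by 1.61 ± 0.07.

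Within a complex the subunits moved by different amounts. In succinate dehydrogenase the flavoprotein gene SDH1 had 494.1 and 486.2 normalised FPKM at 1 h, against 1270 and 1334 at 0 h (-1.41 ± 0.08), whereas SDH2, the iron-sulfur subunit, had 2219 and 2166 at 1 h, against 2646 and 2761 at 0 h (-0.30 ± 0.07, adjusted p = 0.000772). In cytochrome oxidase the change ran between -1.38 ± 0.10 for COX6 and -0.35 ± 0.09 for COX13. ATP15, the epsilon subunit of the stalk, had 1733 and 1663 at 1 h, against 2135 and 1995 at 0 h, and was not called (-0.28 ± 0.16, adjusted p = 0.122). Across the 35 members, exonic length and log2 change had a Spearman rho of -0.39, and across all genes tested -0.06; the 14 members of at most 400 bases had a median change of -0.68 and the 21 longer ones -1.20. Whether message length bears on these values was not tested.

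**Figure D1:**
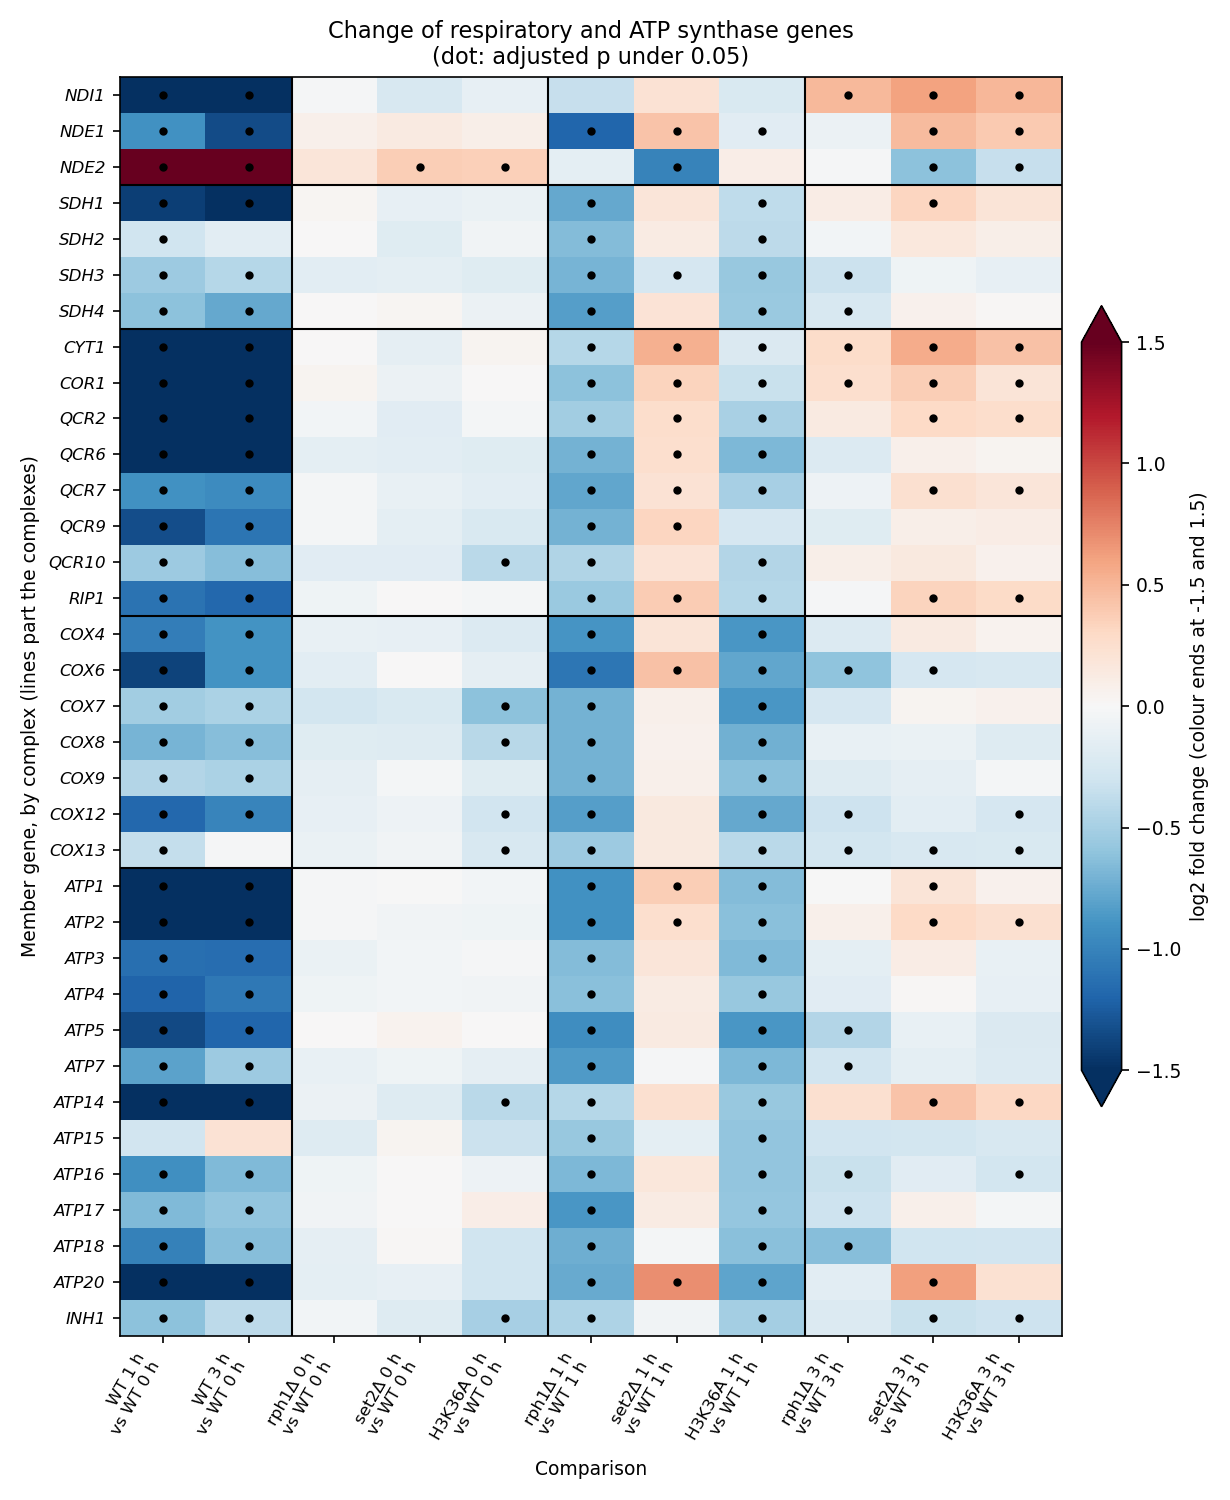
Heat map of log2 fold changes (colour, scale ending at -1.5 and 1.5) of the 35 members, in rows by complex, for 11 comparisons of 2 groups in columns; a dot marks a change called by edgeR at an adjusted p under 0.05. The columns of WT at 1 h and 3 h against 0 h, and of rph1Δ and H3K36A against WT at 1 h, are blue for nearly every member, and the row of NDE2 departs from the rest.

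Most members were still below their 0 h level in WT cells at 3 h. Against 0 h, 31 of the 35 members were lower and 1 higher (34.0% and 35.6% of all genes tested), with a median of -0.95 for the members and 0.02 for all genes. COX13 and SDH2 were no longer called (log2 -0.02 and -0.16), and ATP15 was called at neither time (0.22 at 3 h). The count higher was 2 without WT 3 h replicate 1. Between 1 h and 3 h WT cells gave 6 members higher and 7 lower (27.4% and 18.7% of all genes), with a median of 0.06. The genes higher at 3 h were COX6 (0.49 ± 0.10, adjusted p = 0.000206), NDE2 (0.36 ± 0.08), COX13, ATP7, ATP15 and ATP16; those lower included NDE1 (-0.43 ± 0.06, adjusted p = 3.38e-06) and COR1 (-0.31 ± 0.07). Most of this count rested on single libraries. It was 12 higher without WT 3 h replicate 1 and 3 higher without WT 1 h replicate 2, and 4 lower without WT 1 h replicate 1 and 2 lower without WT 3 h replicate 2. With scaling by library totals, 0 members were higher and 20 lower, but all genes moved that way too, to 15.5% higher and 40.3% lower. The 2 WT libraries at 3 h differed in their short messages: the median log2 ratio of replicate 1 to replicate 2 was -0.30 over the 14 members of at most 400 bases, -0.03 over the 21 longer members and -0.12 over the 1178 genes of at most 400 bases. The part of that gap in the 3 h results was not tested.

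NDE2 was the only one of the 35 members that rose in WT cells at 1 h. It encodes an external NADH dehydrogenase, which oxidises cytosolic NADH. Its level was 539.2 and 555.9 normalised FPKM at 1 h, against 12.16 and 13.53 at 0 h (log2 5.41 ± 0.11, adjusted p = 5.48e-24). NDE1, the other external enzyme, had 647.3 and 606.6 at 1 h, against 1190 and 1167 at 0 h (-0.91 ± 0.06). NDI1, the internal enzyme, had 264.8 and 256.2 at 1 h, against 1106 and 1207 at 0 h (-2.15 ± 0.13), the largest fall of any member. The summed level of NDE1 and NDE2 was 1191 ± 14.9, 1175 ± 17.0 and 1166 ± 62.5 normalised FPKM in WT cells at 0, 1 and 3 h (SD, n = 2), while the NDE2 share of that sum was 1.08% ± 0.0948, 46.6% ± 1.68 and 60.1% ± 2.91. No source used here says how reads that fit both genes were counted.

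The upstream sequences of NDE2 and NDE1 are shown because the pair moved in opposite directions, and that of COX6 because its message was among those that differed most between genotypes at 1 h. They are RefSeq R64 (sacCer3) sequence, 5′ to 3′ on the gene's own strand, and capitals mark CCAAT or its complement ATTGG (the Hap2/3/4/5 core) and AGGGG or its complement CCCCT (the stress-response element of Msn2 and Msn4). NDE2 is bases 250 to 101 before the start codon, chrIV:302961-303110, plus strand; NDE1 is bases 300 to 91, chrXIII:556566-556775, minus strand; COX6 is bases 350 to 201, chrVIII:209355-209504, plus strand.
NDE2: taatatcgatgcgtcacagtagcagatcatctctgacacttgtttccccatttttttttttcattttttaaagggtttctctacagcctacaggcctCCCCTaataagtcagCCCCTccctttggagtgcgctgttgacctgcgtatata
NDE1: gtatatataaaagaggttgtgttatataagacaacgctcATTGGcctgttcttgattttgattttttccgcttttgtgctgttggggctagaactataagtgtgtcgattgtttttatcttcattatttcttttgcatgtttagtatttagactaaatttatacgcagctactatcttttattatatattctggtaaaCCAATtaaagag
COX6: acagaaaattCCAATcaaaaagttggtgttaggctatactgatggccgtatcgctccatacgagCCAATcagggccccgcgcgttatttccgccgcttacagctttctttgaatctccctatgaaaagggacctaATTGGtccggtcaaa

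In the 500 bases before the start codon, CCAAT on either strand was found for 33 of the 36 members (91.7%), and for 3735 of 5978 protein-coding genes (62.5%). NDE2, CYT1 and COX4 had none in that window. NDE1 had 3, at 261, 102 and 9 bases before the start codon, and COX6 had 3, at 340, 286 and 215. AGGGG on either strand, searched after the values had been seen, was found for 18 of 36 members (50%) and 2039 of 5978 genes (34.1%). NDE2 had 2, at 153 and 138 bases. A match of 5 letters is a description of the sequence and no evidence that a factor binds there.

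**Figure D2:**
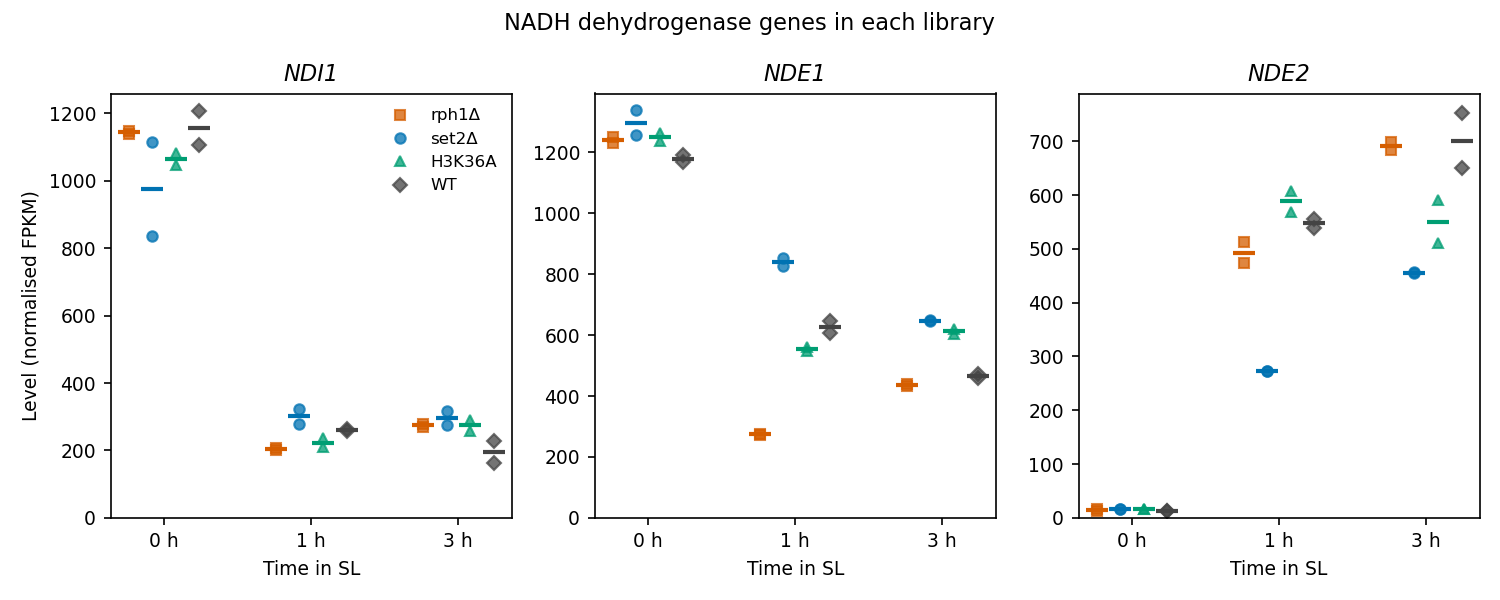
Levels of NDI1, NDE1 and NDE2 in normalised FPKM (vertical axis) in each library, with a panel for each gene and time in SL along the horizontal axis. Colours and markers tell the genotypes rph1Δ, set2Δ, H3K36A and WT apart. Points are libraries and bars their mean (n = 2). At 1 h NDE1 stands lowest in rph1Δ, at 275.4 and 273.6, and NDE2 lowest in set2Δ, at 272.8 and 272.7.

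Before the transfer, rph1Δ cells showed no called difference from WT cells in any member. In edgeR 0 of 35 were higher and 0 lower at 0 h, where 2.41% of all genes were called in each direction; the member median was -0.06. At an unadjusted p under 0.05 edgeR gave 0 higher and 1 lower (SDH3), and DESeq2 called none in either direction. COX6, for example, had 2474 and 2384 normalised FPKM in rph1Δ cells and 2733 and 2710 in WT cells (-0.16 ± 0.10, adjusted p = 0.478). In set2Δ cells at 0 h, NDE2 alone was called higher (0.37 ± 0.13, adjusted p = 0.0377) and none lower (13.3% and 8.73% of all genes), with a member median of -0.08. That call ended without any of the 4 libraries compared, and 3 members were lower without set2Δ 0 h replicate 2. The count of 0 lower was 2 at an unadjusted p under 0.05 (SDH2 and QCR2) and 2 by DESeq2.

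In H3K36A cells at 0 h, NDE2 was called higher (0.36 ± 0.13, adjusted p = 0.0389) and 7 members lower (13.4% and 11.1% of all genes): QCR10, COX7, COX8, COX12, COX13, ATP14 and INH1, the inhibitor of the ATP synthase. The 7 rested on 1 library. COX7 had 1074 and 1782 normalised FPKM in H3K36A libraries 1 and 2, against 2218 and 2138 in WT libraries (-0.61 ± 0.14, adjusted p = 0.00228). Without H3K36A 0 h replicate 1 none of the 7 remained, without replicate 2 the count was 13, and without WT 0 h replicate 2 it was 4; the NDE2 call was lost without any of the 4 libraries. The first H3K36A library was lower than the second in the short members, and less so in short genes at large: its median log2 ratio to the second was -0.46 over the 14 short members, 0.01 over the 21 longer ones and -0.16 over the 1178 genes of at most 400 bases. The part of this library in the 0 h result was otherwise not tested.

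At 1 h after the transfer, the members were lower in rph1Δ than in WT cells across all 5 groups of subunits. Of the 35, 33 were lower and 0 higher, with a median of -0.71, where 9.27% of all genes were lower and 5.90% higher, with a median of 0. No member was higher at an unadjusted p under 0.05 or by DESeq2. The counts were 4 of 4 succinate dehydrogenase, 8 of 8 bc1, 7 of 7 cytochrome oxidase and 13 of 13 ATP synthase subunits, and 1 of 3 NADH dehydrogenases. The libraries of the 2 genotypes did not overlap for any of the 35 members; the same held for 58.5% of all genes. Leaving out each library in turn gave 30 to 33 members lower. Library totals gave 33 lower and 0 higher, where 5.90% of all genes were lower and 14.2% higher.

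NDE1 differed most between rph1Δ and WT cells at 1 h. It had 275.4 and 273.6 normalised FPKM in rph1Δ cells, against 647.3 and 606.6 in WT cells (-1.19 ± 0.07, adjusted p = 8.43e-13). NDE2 had 473.3 and 512.2 in rph1Δ and 539.2 and 555.9 in WT cells and was not called (-0.15 ± 0.08, adjusted p = 0.215). The NDE1 and NDE2 sum was lowest of all 12 groups here, at 767.3 ± 26.2 in rph1Δ at 1 h, and 1103 ± 4.18 or more in the others, and the NDE2 share was 64.2% ± 1.39 in rph1Δ and 46.6% ± 1.68 in WT cells (SD, n = 2). NDI1 had 207.5 and 201.0 in rph1Δ against 264.8 and 256.2 in WT cells and fell short of the threshold (-0.35 ± 0.12, adjusted p = 0.0552).

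Other members with large differences in rph1Δ at 1 h came from the terminal oxidase and the ATP synthase. COX6 had 469.0 and 513.6 normalised FPKM in rph1Δ cells, against 1092 and 992.2 in WT cells (-1.09 ± 0.10, adjusted p = 1.24e-08). ATP5, which encodes the subunit that joins the head to the peripheral stalk (OSCP), had 453.7 and 539.3 in rph1Δ, against 960.9 and 939.6 in WT cells (-0.94 ± 0.09). ATP2 and ATP1 differed by -0.91 ± 0.07 and -0.90 ± 0.07, and COX4 by -0.89 ± 0.09. The smallest called differences were -0.43 for CYT1, ATP14 and -0.45 for QCR10. In all these genes both rph1Δ libraries lay below both WT libraries.

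H3K36A cells at 1 h also had lower levels of nearly all members. Of the 35, 32 were lower than in WT cells and 0 higher, with a median of -0.57, where 26.7% of all genes were lower and 20% higher, with a median of -0.05. No member was higher at an unadjusted p under 0.05 or by DESeq2, and leaving out single libraries gave 29 to 31 lower. Library totals gave 29 lower and 1 higher, where 16.3% of all genes were lower and 30.7% higher. All 4 succinate dehydrogenase, 7 of 8 bc1, all 7 cytochrome oxidase and all 13 ATP synthase subunits were lower, and their libraries did not overlap those of WT, as for 73.9% of all genes. COX7 had 850.8 and 802.2 normalised FPKM in H3K36A, against 1533 and 1506 in WT cells (-0.88 ± 0.15, adjusted p = 2.14e-05). COX4 had 617.4 and 587.4 in H3K36A, against 1066 and 1140 in WT cells (-0.87 ± 0.09), and ATP5 had 536.7 and 502.3, against 960.9 and 939.6 (-0.87 ± 0.09). NDE1 (-0.18 ± 0.06) and CYT1 (-0.21 ± 0.08) were among the 32, but each call was lost in at least 3 of the 4 fits that left out 1 library. QCR9, NDI1 and NDE2 were not called, at -0.25, -0.23 and 0.10.

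The members also fell between 0 h and 1 h in set2Δ cells (median log2 change -0.76), but at 1 h most were not lower than in WT cells. In that comparison 12 of 35 members were higher than in WT cells and 2 lower, with a median of 0.18, where 20.4% of all genes were higher and 27.3% lower, with a median of -0.05. The bc1 complex accounted for 7 of the 12. CYT1 had 657.0 and 719.2 normalised FPKM in set2Δ, against 472.6 and 480.8 in WT cells (0.53 ± 0.08, adjusted p = 3.27e-06), RIP1, the Rieske iron-sulfur protein, differed by 0.38 ± 0.07 and COR1 by 0.34 ± 0.07. ATP20 had 680.3 and 671.8 in set2Δ, against 410.5 and 425.1 in WT cells (0.69 ± 0.13, adjusted p = 9.08e-05). COX6, ATP1 and NDE1 were higher by 0.43, 0.37 and 0.42. Leaving out single libraries gave 9 to 11 higher; other choices gave more, and more of all genes as well. The count was 19 with median-of-ratios scaling (23.3% of all genes higher and 23% lower), 27 with library totals (33.7% and 13.9%), 29 when only the 2 groups were fitted (26.8% and 25%) and 20 by DESeq2 (22.1% and 22.3%).

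The lower genes in set2Δ at 1 h were NDE2 and SDH3. NDE2 had 272.8 and 272.7 normalised FPKM in set2Δ cells, against 539.2 and 555.9 in WT cells (-1.01 ± 0.08, adjusted p = 2.01e-10). SDH3, a membrane anchor, was at -0.26 ± 0.08, a call lost without WT 1 h replicate 1 or set2Δ 1 h replicate 2, which left 1 member lower. With NDE1 at 853.5 and 828.1 in set2Δ, the NDE1 and NDE2 sum was 1114 ± 17.9 in set2Δ and 1175 ± 17.0 in WT cells, and the NDE2 share was 24.5% ± 0.392 in set2Δ and 46.6% ± 1.68 in WT cells (SD, n = 2).

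**Figure D3:**
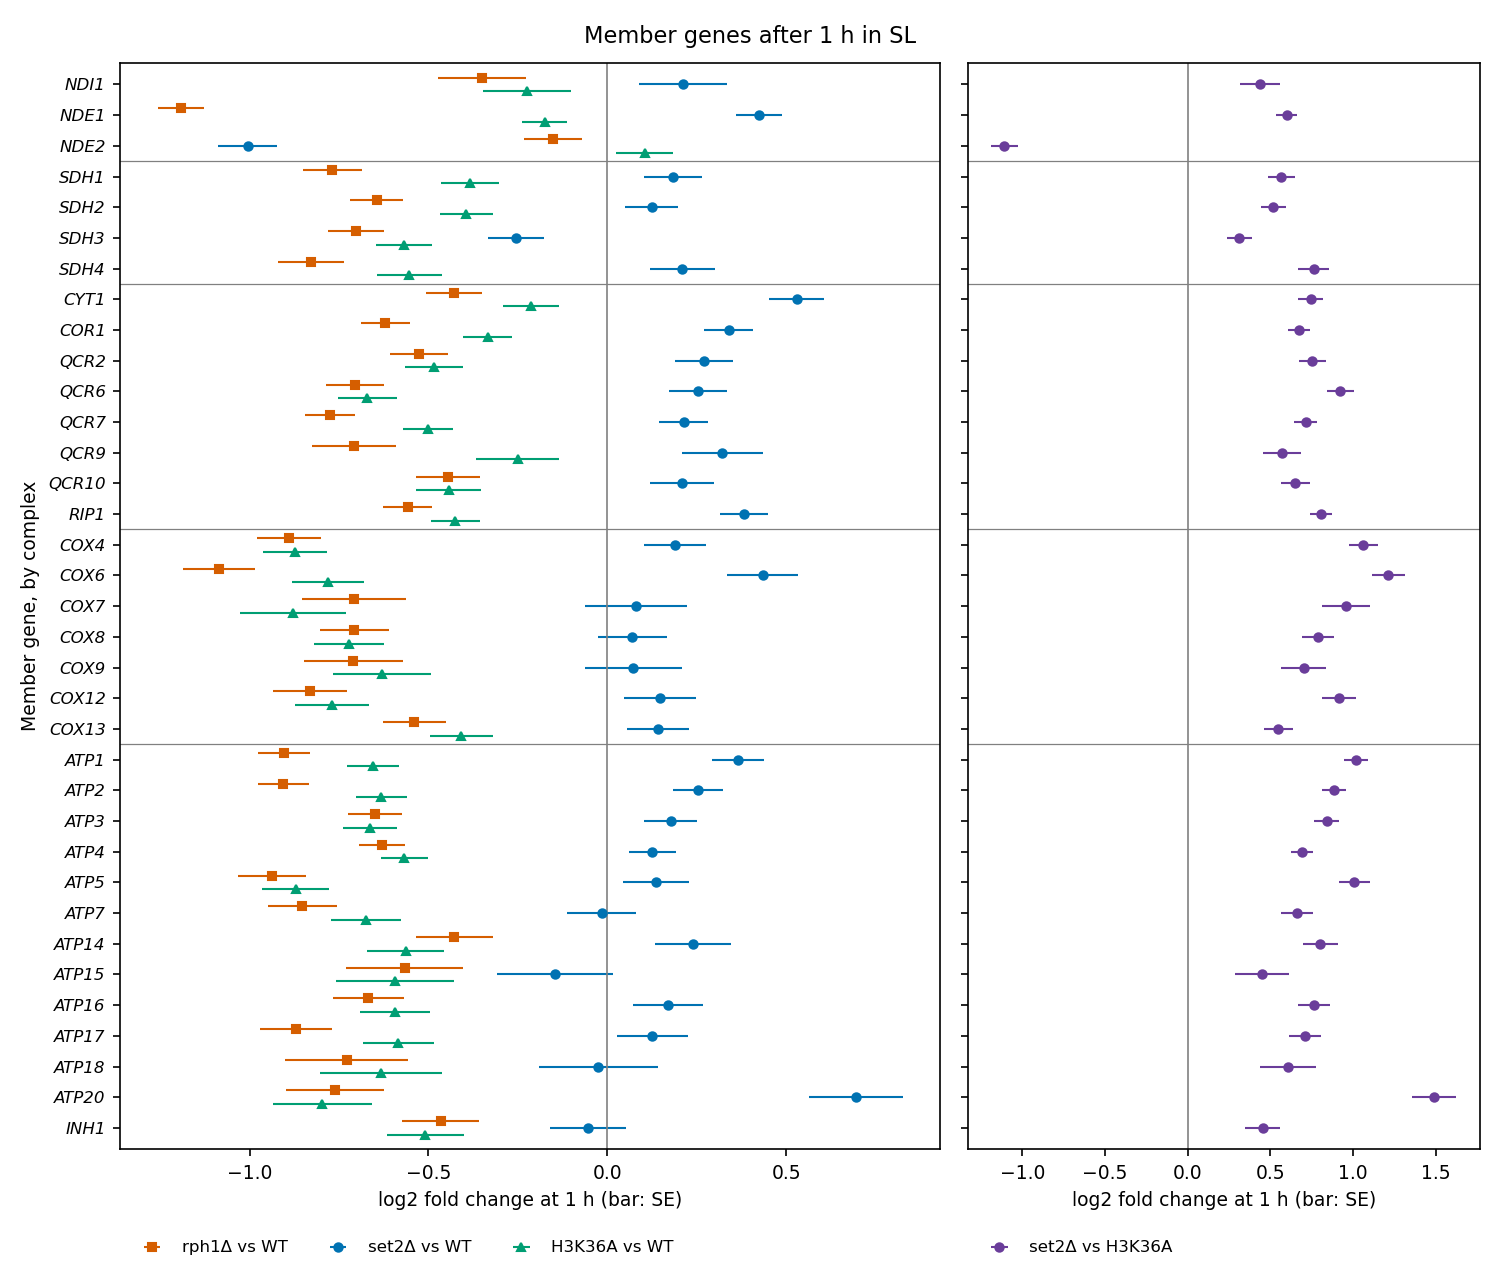
Log2 fold changes with standard errors (horizontal axis) of the 35 members (rows) at 1 h, with rph1Δ, set2Δ and H3K36A each against WT on the left and set2Δ against H3K36A on the right. On the right every member but NDE2 lies above 0, with ATP20 at 1.49 and NDE2 at -1.11.

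The strain without the methyltransferase and the strain without its target residue were also compared with each other. At 0 h edgeR called 0 of 35 members in either direction (1.54% of all genes higher in set2Δ than in H3K36A and 1.18% lower), with a median of 0.05; at an unadjusted p under 0.05 there were 8 higher and 1 lower, and DESeq2 called none. Without H3K36A 0 h replicate 2 the count higher was 9. The 8 members higher at 0 h at an unadjusted p under 0.05 in edgeR were INH1, COX13, QCR10, COX12, ATP14, COX8, COX7 and ATP15. Each is of at most 400 bases. Exonic length and log2 change at 0 h had a Spearman rho of -0.77 across the members and -0.13 across all genes tested. Whether message length bears on these values was not tested. At 1 h, 34 members were higher in set2Δ than in H3K36A and 1 was lower, with a median of 0.71. Of all genes 14.8% were higher and 14.6% lower, with a median of 0. All 35 had libraries that did not overlap between the 2 strains, as had 64.3% of all genes, and leaving out single libraries gave 32 or more higher. At 3 h none was called in either direction (2.23% higher and 2.46% lower among all genes), with a median of 0.08; at an unadjusted p under 0.05 there were 4 higher and 1 lower (NDE2), and DESeq2 called 0 higher and 1 lower. Without H3K36A 3 h replicate 1 edgeR called 1 lower.

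ATP20 showed the largest gap between the 2 strains at 1 h, with 680.3 and 671.8 normalised FPKM in set2Δ against 238.1 and 242.8 in H3K36A (1.49 ± 0.14, adjusted p = 3.03e-09). COX6 had 1467 and 1350 in set2Δ against 639.5 and 573.7 in H3K36A (1.22 ± 0.10). COX4, ATP1 and ATP5 were higher by 1.06, 1.02 and 1.01. NDE2 went the other way, at 272.8 and 272.7 in set2Δ and 608.2 and 569.0 in H3K36A (-1.11 ± 0.08, adjusted p = 6.94e-11).

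The change over time was also tested between strains. The fall between 0 h and 1 h was larger in rph1Δ than in WT cells for 26 of 35 members and smaller for 0 (5.23% and 3.29% of all genes), with a median difference of -0.59; 0 were smaller at an unadjusted p under 0.05 or by DESeq2. NDE1 was furthest apart at -1.27 ± 0.09 (adjusted p = 2.44e-10). H3K36A gave 21 lower and 0 higher (18.0% and 9.90% of all genes; 0 higher at an unadjusted p under 0.05 or by DESeq2), with a median of -0.38, of which ATP5 was the lowest at -0.87 ± 0.13. In set2Δ 17 members were higher and 1, NDE2, was lower (10.9% and 17.2% of all genes), with a median of 0.30. All 8 bc1 subunits were among the 17, CYT1 at 0.67 ± 0.11, and ATP20 at 0.82 ± 0.18. This count was 9 without WT 0 h replicate 2 or without WT 1 h replicate 2, 10 without set2Δ 1 h replicate 1, and 11 without WT 1 h replicate 1 or set2Δ 1 h replicate 2. The NDE2 difference of -1.37 ± 0.15 (adjusted p = 8.92e-08) held in each. These comparisons share the WT libraries. Between set2Δ and H3K36A, a contrast added after the data had been seen, 27 members were higher and 1 lower (6.98% and 5.80% of all genes), with a median of 0.65.

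Between 1 h and 3 h the members' levels moved up in rph1Δ and H3K36A cells, by a smaller median than that of the fall before it. The members' median log2 change between 0 h and 1 h was -1.68 in rph1Δ, -0.76 in set2Δ, -1.44 in H3K36A and -1.04 in WT cells. Between 1 h and 3 h it was 0.59 in rph1Δ, -0.08 in set2Δ, 0.60 in H3K36A and 0.06 in WT cells. The lowest member of this interval was NDI1 in rph1Δ, at 0.42, and NDE2 in H3K36A, at -0.10. In WT cells both 3 h libraries lay above both 1 h libraries for 12 members and below them for 10. Over all genes tested, the WT libraries of these 2 times did not overlap, in either direction, for 67.5%. That share was not computed within the mutants. Tested against the WT change, 25 members rose more in rph1Δ and 0 less (3.51% and 2.49% of all genes; 0 less at an unadjusted p under 0.05 or by DESeq2), with a median of 0.54, NDE1 at 1.10 ± 0.09. For H3K36A 28 rose more and 1, NDE2, less (9.72% and 10.2% of all genes), with a median of 0.55; the NDE2 call was lost without H3K36A 3 h replicate 1, which left 0. For set2Δ 1 was higher and 2 lower (10.7% and 10.5% of all genes), with a median of -0.07: COX6 was at -0.68 ± 0.14 (adjusted p = 0.000863), while NDE2 (0.38) and COX13 (-0.38) were each lost without single libraries, WT 1 h replicate 2 and set2Δ 1 h replicate 1 among them for both. The counts then ran between 0 and 2 higher and between 1 and 5 lower, the 5 without WT 3 h replicate 1. In the added contrast of set2Δ with H3K36A, 1 member was higher (NDE2, 0.84 ± 0.11) and 30 lower (5.54% and 6.41% of all genes), with a median of -0.62.

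In no genotype did a complex's summed level at 3 h reach that at 0 h. The 13 ATP synthase genes summed to 27160 ± 374, 8200 ± 600 and 12850 ± 87.0 normalised FPKM in rph1Δ cells at 0, 1 and 3 h, and to 26140 ± 2033, 8720 ± 360 and 13940 ± 281 in H3K36A cells (SD, n = 2). In set2Δ cells the sums were 27810 ± 2318, 14610 ± 379 and 14790 ± 497, and in WT cells 28550 ± 17.2, 13470 ± 102 and 15170 ± 2121. At 1 h the rph1Δ and H3K36A libraries lay below those of set2Δ and WT, and at 3 h the H3K36A libraries lay within the WT range and those of rph1Δ below it. The 7 cytochrome oxidase genes summed at 0, 1 and 3 h to 15770 ± 425, 5983 ± 554 and 9381 ± 170 in rph1Δ, 16400 ± 1220, 11170 ± 244 and 10480 ± 353 in set2Δ, 14340 ± 2165, 6163 ± 301 and 10340 ± 483 in H3K36A, and 17580 ± 4.74, 10090 ± 216 and 11250 ± 1597 in WT cells. The 8 bc1 genes summed to 18680 ± 204, 5277 ± 299 and 7752 ± 232 in rph1Δ, 17880 ± 380, 9802 ± 74.0 and 9098 ± 51.5 in set2Δ, 17770 ± 742, 5939 ± 143 and 8740 ± 61.2 in H3K36A, and 19500 ± 471, 8045 ± 108 and 7811 ± 199 in WT cells. In set2Δ and WT cells the bc1 sum was no higher at 3 h than at 1 h, as the plot of summed levels shows. All members but NDE2 together took 1.36% and 1.44% of all counts in rph1Δ libraries at 1 h, 2.92% and 2.88% in set2Δ, 1.72% and 1.66% in H3K36A and 2.17% and 2.15% in WT libraries.

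**Figure D4:**
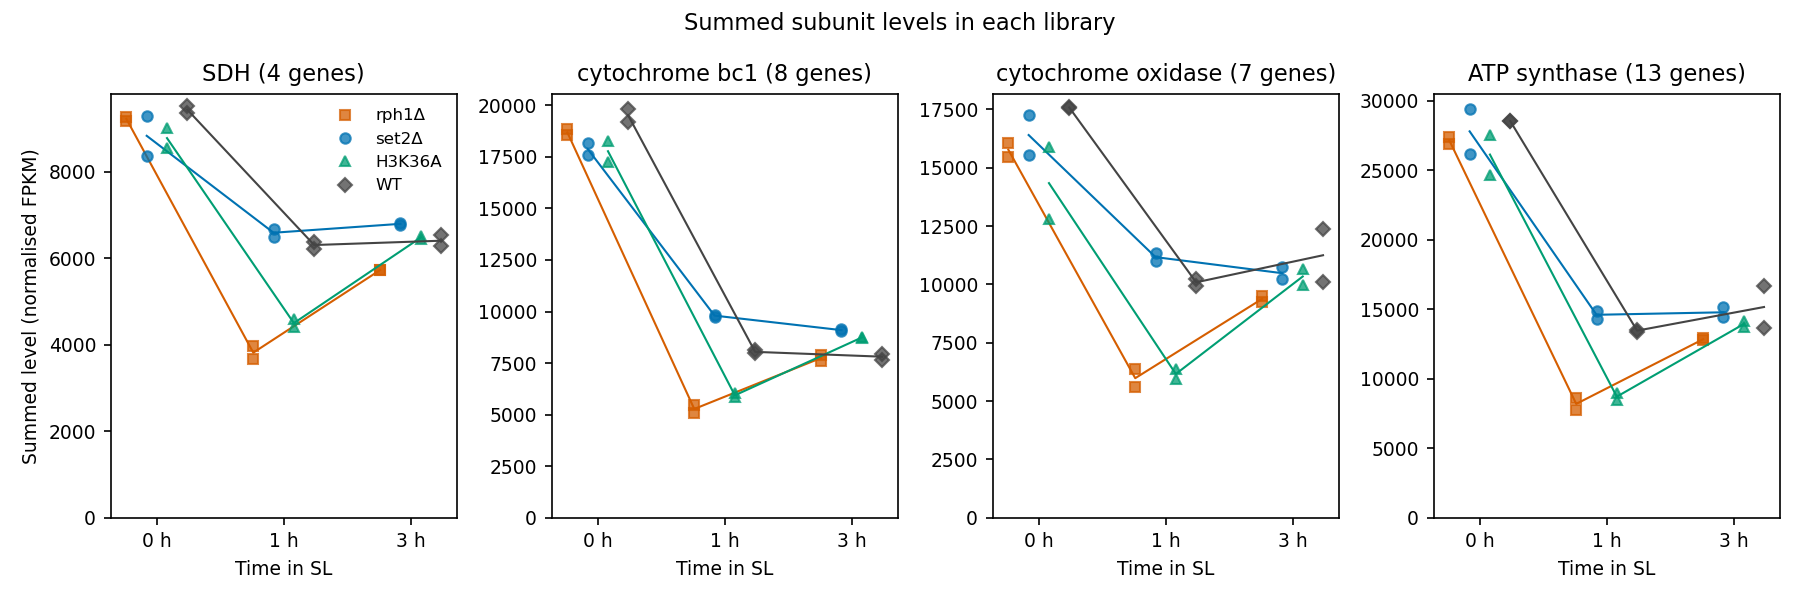
Summed level in normalised FPKM (vertical axis) of the subunit genes of succinate dehydrogenase (4), the bc1 complex (8), cytochrome oxidase (7) and the ATP synthase (13) against time in hours (horizontal axis, equal steps) for each genotype, shifted sideways for clarity; points are libraries and lines join the means of the 2 libraries. In all 4 panels rph1Δ and H3K36A are lowest at 1 h and rise by 3 h.

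At 3 h each mutant had members both higher and lower than in WT cells. In rph1Δ 3 members were higher and 10 lower (11.6% and 16.4% of all genes), with a median of -0.17. COX6 had 991.9 and 932.6 normalised FPKM in rph1Δ, against 1322 and 1605 in WT cells (-0.60 ± 0.10, adjusted p = 0.00018), and ATP5 and SDH3 were lower by 0.43 and 0.32 on the log2 scale; NDI1, CYT1 and COR1 were the higher ones, at 0.49, 0.27 and 0.26. The count lower was 16 without the first WT library at 3 h, 5 without the first rph1Δ library, and 3 without either second library. The count higher was 0 without the second WT library and 1 without the second rph1Δ library. Library totals gave 7 higher and 3 lower, with 21.7% and 7.64% of all genes.

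In set2Δ at 3 h 12 members were higher and 4 lower (20.6% and 27.8% of all genes), with a median of 0.08. CYT1 had 575.3 and 589.7 normalised FPKM in set2Δ, against 423.7 and 369.5 in WT cells (0.55 ± 0.08, adjusted p = 2.76e-06), and NDI1, NDE1, COR1 and RIP1 were higher by 0.60, 0.48, 0.36 and 0.34. NDE2 was lower, with 457.0 and 455.0 in set2Δ against 650.7 and 751.8 in WT cells (-0.62 ± 0.08, adjusted p = 8.65e-07). The other 3 lower genes, INH1, COX6 and COX13, rested on single libraries: the count lower was 8 without WT 3 h replicate 1, 2 without set2Δ 3 h replicate 1, and 1 without WT 3 h replicate 2 or set2Δ 3 h replicate 2. Library totals gave 22 higher and 1 lower, with 35.7% and 12% of all genes. H3K36A at 3 h gave 9 higher and 5 lower (18.7% and 27.6% of all genes), with a median of 0.04. CYT1 had 544.7 and 527.5 in H3K36A (0.43 ± 0.08), NDE1 had 621.1 and 603.3 against 470.9 and 458.3 in WT cells (0.40 ± 0.06), and RIP1 and ATP2 were higher by 0.29 and 0.24. NDE2 was lower there (-0.35 ± 0.08), with libraries at 510.7 and 590.6 in H3K36A and 650.7 and 751.8 in WT cells. The count higher was 5 without H3K36A 3 h replicate 2, and the count lower 10 without WT 3 h replicate 1, 1 without H3K36A 3 h replicate 1 and 0 without WT 3 h replicate 2. Library totals gave 18 higher and 0 lower, with 34.0% and 11.3% of all genes. The gap in short messages between the WT libraries at 3 h, given above, touches each of these comparisons.

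Genes listed under assembly of the same complexes were counted beside the subunits. The lists are broader than assembly factors. They also hold factors for mitochondrial messages (PET111, PET309, CBP2 and AEP1, for example), the carrier FLX1 and the protease OMA1. In WT cells at 1 h, 48 of the 60 listed genes tested fell and 6 rose (median -1.53), where 34.8% of all genes fell and 37.3% rose. For cytochrome oxidase 24 of 29 fell, for bc1 11 of 12, for the ATP synthase 9 of 13 and for succinate dehydrogenase 4 of 6. The bc1 list takes in CYC3, the heme lyase of cytochrome c. In rph1Δ against WT at 1 h, 0 of the 60 were higher and 2 lower (median -0.02), beside 33 of the 35 subunits lower; of all genes 5.90% were higher and 9.27% lower. In set2Δ 8 of the 60 were higher and 10 lower (-0.03; 20.4% and 27.3% of all genes), in H3K36A 9 higher and 6 lower (-0.03; 20% and 26.7%), and in set2Δ against H3K36A 4 higher and 7 lower (-0.05; 14.8% and 14.6%). No test set the assembly list against the subunits.

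Other genes of the same route, from lists set by function, were counted against WT at 1 h. The shares of all genes to set beside each count were 5.90% higher and 9.27% lower in rph1Δ, 20.4% and 27.3% in set2Δ, and 20% and 26.7% in H3K36A. Of 6 carriers and porin, 3 were lower in rph1Δ and 4 in H3K36A than in WT cells, and 2 were higher and 2 lower in set2Δ. PET9, the main mitochondrial ADP/ATP carrier, was at -1.17 ± 0.08 in rph1Δ, 0.61 in set2Δ and -0.85 in H3K36A, and MIR1, the phosphate carrier, at -0.99, 0.25 and -0.99. Among 8 other genes (the further subunits ATP19, TIM11 and COX26, the succinate dehydrogenase relatives SHH3, SHH4 and YJL045W, and STF1 and STF2, which act with the ATP synthase inhibitor), 3, 3 and 3 were lower and 0, 2 and 2 higher in rph1Δ, set2Δ and H3K36A; TIM11, subunit e of the ATP synthase, was at -0.83 in rph1Δ and -0.49 in H3K36A. Of 4 genes for cytochrome c and its isoforms and COX5A and COX5B, 2 were lower in rph1Δ, 2 higher in set2Δ, and 1 higher and 2 lower in H3K36A. CYC1, the main cytochrome c, had 677.6 and 729.4 normalised FPKM in rph1Δ, 1814 and 1761 in set2Δ, 663.9 and 602.9 in H3K36A and 949.3 and 889.1 in WT cells at 1 h.

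Read against the same shares of all genes, coenzyme Q synthesis gave 0 of 12 called in rph1Δ, 5 lower in set2Δ, and 1 higher and 2 lower in H3K36A. The 2 supercomplex factors gave 0, 1 and 1 lower. Of 4 other electron donors to the chain 3 were lower in rph1Δ, 1 was higher and 1 lower in set2Δ, and 2 were higher in H3K36A. Of 8 Hap and oxygen regulators 2 were higher in rph1Δ (ROX1 at 1.21 and UPC2 at 0.61), 1 was higher in set2Δ (ROX1 at 0.62) and 3 were lower in H3K36A. HAP4, the activating subunit of Hap2/3/4/5, fell in WT cells at 1 h (-2.59 ± 0.13). At that time it had 64.8 and 57.9 normalised FPKM in rph1Δ, 71.9 and 80.3 in set2Δ, 47.5 and 46.7 in H3K36A and 70.0 and 61.1 in WT cells. It was called against WT in H3K36A (-0.48) but not in rph1Δ (-0.10) or set2Δ. Between set2Δ and H3K36A it was called higher in set2Δ (0.69 ± 0.13, adjusted p = 0.000202 in edgeR). Of 8 mitochondrially encoded genes 1 passed the filter, with 0 calls, and all 8 together had 10 counts in rph1Δ, 18 in set2Δ, 12 in H3K36A and 9 in WT libraries.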

How the data were processed

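Messenger RNA of 24 libraries was sequenced. Per the submitters' processing notes, cutadapt 1.9.1, HISAT2 2.0.1 and HTSeq 0.6.1 were used with the sacCer3 build; neither the strand setting nor the treatment of shared reads is stated there. The authors deposited raw counts per gene and FPKM values, which per the file headers cover the same samples; in 100% of cells the deposited FPKM equals the count scaled by library total and length, within 0.0051. The 6503 genes that reached 1 deposited FPKM in 2 or more libraries entered edgeR 4.0.16 (R 4.3.3; TMM scaling, 1 quasi-likelihood fit of all 12 groups, 12 residual degrees of freedom), with 23 contrasts and Benjamini-Hochberg adjustment in each. Alternatives were median-of-ratios scaling, library totals, no filter, DESeq2 1.42.0, a replicate block, fits of the compared groups alone, and leaving out each library. The 36 members, the gene lists and the added set2Δ to H3K36A time contrasts were chosen with earlier results of these data known. Any member could be named, those past the threshold as called and the others by value; of each other list, at most the 2 highest and 2 lowest called genes of a comparison. The replicate numbers came from the labels. Correlations of same-numbered libraries' deviations ran between -0.5012 and 0.4322 over 66 pairs of groups, so the numbers were not taken as pairs.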

Additional observations from a re-analysis of the deposited data

Results flagged for a closer look

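Changes over time differed between strains, by the test of the difference itself in edgeR. In rph1Δ against WT, 26 of 35 members had a lower change between 0 h and 1 h (5.23% of all genes) and 25 a higher change between 1 h and 3 h (3.51%). For set2Δ against WT there were 17 higher and 1 lower in the first interval (10.9% and 17.2% of all genes), and 1 higher and 2 lower in the second (10.7% and 10.5%). H3K36A against WT gave 21 lower in the first interval (18.0%), and 28 higher and 1 lower in the second (9.72% and 10.2%). Between set2Δ and H3K36A, in contrasts added after the data had been seen, 27 were higher and 1 lower in the first interval (6.98% and 5.80%), and 1 was higher and 30 lower in the second (5.54% and 6.41%). No group held 4 or more libraries, so no single library was tested for standing apart.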

How the results depend on the processing

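Of 426 called results for single members, 108 were lost in at least 1 fit that left out a library, 29 were lost and 5 more reversed with library totals, 26 were lost with only the groups compared, 19 with median-of-ratios scaling, 16 with DESeq2, 3 with the replicate block and 0 without the filter. The 1 h counts for rph1Δ and H3K36A lower than WT, and for set2Δ higher than H3K36A, stayed within 1.5 times under every alternative run. Library totals in place of TMM moved the median of all genes by -0.27 between WT at 3 h and 1 h and by 0.16 to 0.23 for set2Δ and H3K36A against WT at 1 h and 3 h. QCR8 had too few counts to be read, a lack not tested further, and NDE2 had few at 0 h.

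Shares of all genes called in the same direction are in brackets where not given above. With library totals the counts were 0 higher and 20 lower for WT at 3 h against 1 h, and 7 higher and 3 lower for rph1Δ at 3 h. For set2Δ they were 2 higher at 0 h (14.5%), 27 higher and 1 lower at 1 h, and 22 higher and 1 lower at 3 h. H3K36A gave 1 higher at 1 h, and 18 higher and 0 lower at 3 h. In set2Δ against H3K36A at 3 h 1 was higher (2.46%). Library totals also gave 25 higher and 1 lower for the 0 h to 1 h change of set2Δ less that of WT (18.4% and 9.41% of all genes), and 15 lower for that of H3K36A (13% higher and 11.7% lower). At 0 h they gave 0 of 35 called in rph1Δ (3.78% of all genes higher and 1.83% lower), and 1 higher and 5 lower in H3K36A (16.8% and 7.40%). Among members called under either scaling, signs reversed with library totals for WT at 3 h against 1 h in ATP16 (-0.0322), ATP17 (-0.2308), QCR6 (-0.2097), ATP7 (-0.0436), SDH3 (-0.1768), COX8 (-0.2421) and ATP4 (-0.1665), for set2Δ at 3 h in COX13 (0.0089) and SDH3 (0.1857), for H3K36A at 1 h in NDE1 (0.0009) and for H3K36A at 3 h in COX13 (0.0094). Counting members called under neither scaling too, 15 of the 35 changed sign for WT at 3 h against 1 h, 7 for rph1Δ, 8 for set2Δ and 9 for H3K36A at 3 h. Median-of-ratios scaling gave 0 higher for set2Δ and H3K36A at 0 h (11.8% and 12.5%), and 19 higher and 1 lower for set2Δ at 1 h. It gave 2 lower for set2Δ and for H3K36A at 3 h (24.9% and 23.5%), and 1 lower for set2Δ against H3K36A at 3 h (2.74%). DESeq2 gave 3 higher for WT at 3 h against 1 h, 0 higher for set2Δ and H3K36A at 0 h, 2 lower for set2Δ at 0 h, 20 higher for set2Δ at 1 h, 2 lower for set2Δ and for H3K36A at 3 h, and 1 lower for set2Δ against H3K36A at 3 h. Only the groups compared gave 1 lower for rph1Δ at 0 h and 4 at 3 h, 0 higher for set2Δ and H3K36A at 0 h, 29 higher for set2Δ and 1 higher for H3K36A at 1 h, 1 lower for set2Δ and 0 lower for H3K36A at 3 h, and 2 higher and 1 lower for set2Δ against H3K36A at 3 h. The replicate block gave 1 lower for set2Δ against H3K36A at 3 h (159 of the 6503 genes), and 15 of 66 pairs of groups had a correlation over 0.1. The cause of these moves was not tested.

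Leaving out single libraries, the lowest and highest counts were 1 and 2 higher for WT at 3 h against 0 h; 3 and 12 higher and 2 and 6 lower for WT at 3 h against 1 h; 0 and 4 higher and 3 and 16 lower for rph1Δ at 3 h; 0 and 0 higher and 0 and 3 lower for set2Δ at 0 h; 1 and 2 lower for set2Δ at 1 h; 1 and 8 lower for set2Δ at 3 h; 0 and 0 higher and 0 and 13 lower for H3K36A at 0 h; 5 and 10 higher and 0 and 10 lower for H3K36A at 3 h. For the change between 0 h and 1 h in set2Δ against WT they were 9 and 18 higher, and for that between 1 h and 3 h, 0 and 2 higher and 1 and 5 lower; in H3K36A against WT the second change gave 0 and 1 lower. Set2Δ against H3K36A gave 0 and 9 higher at 0 h and 0 and 1 lower at 3 h.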

Other observations

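Near relatives of the members, chosen after their values had been seen, were low in YPL and rose in SL as NDE2 did. YJL045W, which is related to SDH1, had a mean of 7.66, 84.6 and 363 normalised FPKM in WT cells at 0, 1 and 3 h (SD 1.61, 2.90 and 43.2, n = 2), and SHH4, a relative of SDH4, had 18.0, 319 and 696 (SD 0.834, 13.2 and 115). At 1 h SHH4 had 184.9 and 163.3 in set2Δ against 309.8 and 328.4 in WT cells (log2 -0.87 ± 0.10, adjusted p = 1.28e-07 in edgeR), and YJL045W was at -0.85 ± 0.10, the direction of NDE2 in that strain. YJL045W also had 59.9 and 63.5 in H3K36A at 1 h, against 86.7 and 82.6 in WT cells, though NDE2 was not called there. By 3 h SHH4 and YJL045W were called lower than in WT cells in set2Δ (-0.96 and -0.87) and in H3K36A (-0.86 and -1.09). SHH3, a relative of SDH3, was higher than in WT cells in set2Δ and H3K36A at 1 h: it had 172.5 and 163.5 in set2Δ and 220.9 and 193.7 in H3K36A, against 39.7 and 45.1 in WT cells (1.99 ± 0.12 and 2.29 ± 0.12). At 3 h it had 502.3 and 486.4 in set2Δ, within the WT range, and was not called higher there. In H3K36A it was still higher at 3 h (0.43 ± 0.10). In rph1Δ at 3 h SHH3 had 212.8 and 206.3, against 443.4 and 539.2 in WT cells (-1.23 ± 0.10). COX5B, the hypoxic isoform of the oxidase subunit COX5A, had 63.6 and 55.2 in H3K36A, against 39.8 and 32.4 in WT cells at 1 h (0.71 ± 0.21, adjusted p = 0.00608), while COX5A had 1211 and 1163 in H3K36A against 2049 and 1944 in WT cells. No source used here says how reads shared by such relatives were counted.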
